A study of Rattus norvegicus with 12 samples.

Results

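The 8 genes described here, Mbp, Mog, Mag, Mobp, Cnp, Cldn11, Mal and Ermn, encode proteins of the myelin sheath and of the mature oligodendrocytes that make it. They were taken by symbol from a table of 31177 genes and loci, each matched 1 row, and all 8 were among the 18850 that had enough counts to be tested. The table holds brain RNA from 12 libraries, 4 in each of 3 groups: Sham (the controls), AD (a model of Alzheimer's disease) and AD-HFD (the same model combined with a high-fat diet). The study set out to see which transcripts differ in the AD model and what the diet adds to it. How the AD model was made, strain, age, sex, length of the diet and brain region are not given in the sources used here, and a diet-only group was not analysed here. Mice are named in the labels, whereas the organism field and the Ensembl identifiers are rat, and the data are treated as rat. The labels do not say that each library came from a separate animal, so the p-values measure only the spread between these libraries.

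Oligodendrocytes wrap axons in compacted membrane, which speeds conduction and supports the axon. The transcription factors OLIG2, SOX10 and MYRF switch on the genes of the sheath as precursors mature, and these genes are usually transcribed together. White matter and deep, fibre-rich regions hold more of this RNA than the upper layers of cortex do. In bulk tissue, fewer oligodendrocytes and less RNA per oligodendrocyte cannot be told apart.

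Promoter sequence was available for 6 of the 8 genes (RefSeq, GRCr8, the 250 bases before the start site). Mog and Ermn had no entry, and the window of Mbp was left out of the search. The 4 stretches below were chosen because they show the range from many matches to none for motifs that these transcription factors are known to bind. Capitals mark ACAAAG (SOX family), CTGGCAC (MYRF) or CAGCTG (an E-box of the kind bound by OLIG2), searched on both strands and shown as they read on the gene's strand. Cnp is at chr10:86011254-86011503, plus strand. Mobp is at chr8:128746982-128747116, plus strand, and ends 115 bases before the start site, where the annotated span of the gene begins. Mal is at chr3:135341424-135341673 and Cldn11 at chr2:114149540-114149789, both on the minus strand.
Cnp: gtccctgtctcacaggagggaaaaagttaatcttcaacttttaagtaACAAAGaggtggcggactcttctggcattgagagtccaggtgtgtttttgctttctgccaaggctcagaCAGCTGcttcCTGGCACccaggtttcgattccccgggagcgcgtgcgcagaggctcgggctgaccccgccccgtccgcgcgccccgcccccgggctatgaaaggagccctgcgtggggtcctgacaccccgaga
Mobp: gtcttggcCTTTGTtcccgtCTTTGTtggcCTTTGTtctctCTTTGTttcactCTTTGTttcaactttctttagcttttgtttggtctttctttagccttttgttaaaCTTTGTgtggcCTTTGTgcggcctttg
Mal: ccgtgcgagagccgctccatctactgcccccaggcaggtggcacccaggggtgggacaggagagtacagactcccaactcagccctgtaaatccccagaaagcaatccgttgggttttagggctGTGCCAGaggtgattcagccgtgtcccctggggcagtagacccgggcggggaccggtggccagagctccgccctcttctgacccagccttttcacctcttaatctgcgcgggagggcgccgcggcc
Cldn11: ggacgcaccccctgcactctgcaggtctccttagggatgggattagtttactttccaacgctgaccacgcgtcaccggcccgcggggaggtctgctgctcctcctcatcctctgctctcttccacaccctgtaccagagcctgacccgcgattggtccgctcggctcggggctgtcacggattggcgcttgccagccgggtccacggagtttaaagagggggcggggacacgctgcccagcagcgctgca
Cnp held 1 match to each of the 3 motifs. Mobp held 8 matches to ACAAAG in its window, of which 7 lie whole in the printed stretch, all on the opposite strand. Mal held 1 CTGGCAC match, Mag (not printed) held 1 ACAAAG and 1 CTGGCAC match, and the Cldn11 window held none of these letters, nor of ACAATG, a further SOX sequence that none of the 5 windows searched (Mag, Mobp, Cnp, Cldn11 and Mal) held. Among 33469 rat promoter windows of 250 bases, 16.3% held ACAAAG, 11.1% ACAATG, 3.78% CTGGCAC and 12.0% CAGCTG. The matches describe these windows and show no binding.

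Together the 8 genes took a mean of 0.982% ± 0.412 of the reads counted for Sham, 2.07% ± 1.17 for AD and 2.20% ± 1.29 for AD-HFD (SD, n = 4 each). Mbp alone took a mean of 0.749%, 1.62% and 1.77%, so this sum mostly follows Mbp. The share ran from 0.497% in AD-HFD-3 to 3.64% in AD-HFD-4, so the extremes of all 12 libraries lay in the same group. Total counts ran from 26668974 to 35351792 per library, and the lowest count of any member was 870 (Ermn in AD-HFD-3), so counting error was small beside the spread between libraries. Levels below are given as CPM, that is, counts after scaling for library size, and are compared between libraries for 1 gene and not between genes, since no transcript lengths were used.

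Mbp, myelin basic protein, holds the cytoplasmic faces of the sheath together. It stood at 4568, 8496, 12003 and 5438 CPM in Sham-1 to Sham-4, at 21777, 27619, 6635 and 9595 CPM in AD-1 to AD-4. The AD-HFD libraries, in replicate order, stood at 16352, 17483, 3725 and 32203 CPM. AD-3 and AD-4 lay within the Sham range, and AD-HFD-3 lay below every Sham library. Mobp, another small basic protein of the sheath, stood at 300, 643, 706 and 350.0 CPM in Sham, 1789, 2076, 478 and 809 CPM in AD, and 1174, 1040.1, 247 and 1822 CPM in AD-HFD, in replicate order. Here only AD-3 and AD-HFD-3 fell within or below the Sham range.

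Mog and Mag are surface proteins of the sheath, Mog on its outermost face and Mag on the membrane next to the axon. Mog stood at 88.6, 155, 179 and 95.8 CPM in Sham, 269.8, 312, 87.3 and 163 CPM in AD, and 236, 213, 48.6 and 241 CPM in AD-HFD. Mag stood at 209, 347, 422 and 226 CPM in Sham, 637, 789, 419.9 and 480.4 CPM in AD, and 629, 867, 239 and 809 CPM in AD-HFD. For Mag, AD-3 was 1 of the 2 libraries from the AD model within the Sham range, just under Sham-3, and AD-HFD-3 was the other.

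Cldn11, the claudin of the tight junctions between myelin layers, stood at 164, 326, 421 and 205 CPM in Sham, 859.6, 886, 504 and 717 CPM in AD, and 1012, 1112, 228 and 890.1 CPM in AD-HFD. It was the only member whose AD libraries all lay above all Sham libraries. Cnp, an enzyme that keeps channels of cytoplasm open within the sheath, ran from 427 to 829 CPM in Sham, 568 to 1371 CPM in AD and 311 to 1136 CPM in AD-HFD. Mal, a proteolipid of membrane sorting, ran from 251 to 498 CPM in Sham, 233 to 800.5 CPM in AD and 121 to 963 CPM in AD-HFD. The groups overlapped for both.

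Ermn, ermin, is a cytoskeletal protein of late-stage oligodendrocytes. It stood at 100.5, 202, 185 and 94.1 CPM in Sham, 257, 265, 34.7 and 108 CPM in AD, and 158, 107, 27.2 and 91.8 CPM in AD-HFD. Its AD-HFD mean, 96.1 ± 54.0 CPM, was the lowest of the 3 group means, whereas each of the other 7 members had its lowest mean in Sham.

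**Figure D1:**
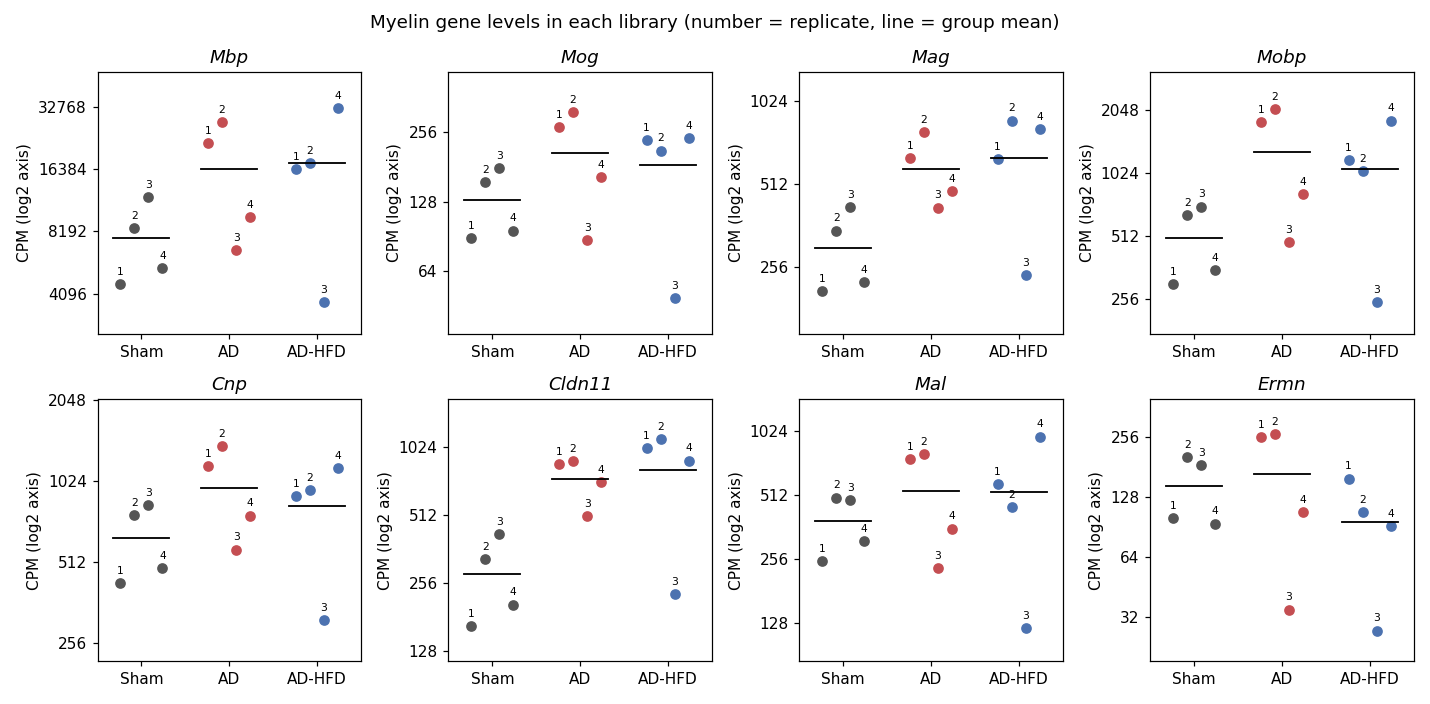
CPM of each of the 8 genes (log2 axis) in every library by group; points are libraries labelled with their replicate number and lines are group means. AD-3 is the lowest AD library and AD-HFD-3 the lowest AD-HFD library in all 8 panels.

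Within a group the members moved up and down together. All 8 ordered the AD libraries as AD-3, AD-4, AD-1 and AD-2 from low to high, an order held by 11.0% of all tested genes, and all 8 were lowest in AD-HFD-3 within their group, as were 36.7% of all genes. All 8 had Sham-1 and Sham-4 below Sham-2 and Sham-3, against 22.0% of all genes. The mean log2 CPM of 5 choroid plexus markers split Sham likewise, at -1.96, 7.36, 6.69 and -0.67 in Sham-1 to Sham-4. It was -0.52 to -0.03 in AD, and 8.15, 4.02, -0.21 and 0.31 in AD-HFD-1 to AD-HFD-4. The part of tissue content in the members' levels was not tested. Across the 12 libraries the log2 CPM of each member correlated with the mean of the other 7 at a Pearson r of 0.990 for Cnp, 0.984 for Mog, 0.981 for Mobp, 0.970 for Mbp, 0.929 for Mal and 0.889 for Mag. Cldn11 (0.836) and Ermn (0.665) followed the rest least, yet with group means removed they reached 0.919 and 0.891. These are descriptions over libraries that share a table, a scaling and their tissue. The median SD within groups of log2 CPM was 0.895 for the members and 0.417 for 17105 genes with counts in every library.

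Among the genes most like the members over the 12 libraries, by Pearson r with the members' mean standardised log2 CPM, were Tmem125 (0.982), Akr7a3 (0.977), Slc29a3 (0.968), Pllp (0.966, plasmolipin, a myelin membrane protein), Tgfa (0.965), Gna12 (0.964), Tmem98 (0.962, a membrane protein that binds MYRF), Ankrd40 (0.959) and Arhgef10 (0.957). None of these 9 was called in any of the 3 comparisons between groups.

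In AD against Sham, the estimates of all 8 members were above 0 and none was called (edgeR's quasi-likelihood test, Benjamini-Hochberg adjusted p under 0.05 over all genes), while 6.23% of all genes tested were called. The members' median log2 fold change was 0.82, against 0.06 over all genes. Cldn11 had the largest estimate, 1.41 ± 0.436 (SE; 95% interval 0.46 to 2.36; adjusted p = 0.0762), followed by Mobp with 1.37 ± 0.575 (adjusted p = 0.173) and Mbp with 1.11 ± 0.634 (adjusted p = 0.314). Mag was at 0.95 ± 0.371 (adjusted p = 0.144), and Mog, Cnp, Mal and Ermn lay between 0.19 and 0.68. At an unadjusted p under 0.05, 3 members passed (Mag, Mobp and Cldn11), beside 24% of all genes (4517 of 18850). Cldn11 was the only member whose CPM did not overlap between the groups, as was so for 21.6% of all genes. Cldn11 passed with DESeq2 (adjusted p = 0.0168), which called 12.0% of the genes it gave an adjusted p, and in a fit on the AD and Sham libraries alone (adjusted p = 0.0211), which called 13.1% of all genes. Without AD-HFD-3, which is in neither group but enters the shared estimate of the spread, Mag and Cldn11 passed (adjusted p of Cldn11 = 0.0124), beside 11.8% of all genes.

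In AD, 3 of the 4 libraries carried markers of another brain region. Averaged over 9 thalamus markers, log2 CPM was 6.72 for AD-1, 4.44 for AD-2 and 6.23 for AD-4, whereas AD-3 was at 1.79 and Sham at 1.75 to 2.54. Averaged over 10 cortex markers it was 2.50 for AD-1, 1.85 for AD-2 and 2.80 for AD-4, whereas AD-3 was at 5.49 and Sham at 6.56 to 6.86. With these 3 libraries left out AD-3 stood alone for its group, assumed to vary like the other groups, and the members' median log2 fold change was -0.17. Mbp was then at -0.20, Mog at -0.57, Mobp at -0.06, Cnp at -0.14, Mal at -0.73 and Ermn at -2.07, while Mag was at 0.48 and Cldn11 at 0.85 (adjusted p of Cldn11 = 0.499). AD-4, with thalamus markers near those of AD-1, lay below AD-1 and AD-2 for every member and within the Sham range for 5 of the 8 (Mbp, Mog, Cnp, Mal and Ermn). In AD-HFD-1, AD-HFD-2 and AD-HFD-4 the members' mean log2 CPM was 9.65 to 9.97, against 8.16 to 9.26 in Sham. Their thalamus markers, at 2.04 to 2.52, lay within the Sham range. Their cortex markers, at 4.34, 4.74 and 3.73 in that order, lay below it, and AD-HFD-3 was at 6.24. The part of brain region in the members' levels was not tested.

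In AD-HFD against AD, set up to ask what the diet adds within the model, the members split around 0 and none was called. All 9 thalamus markers had estimates below 0 here, with a median of -3.87. Diet and brain region therefore cannot be told apart in this comparison. The members' median log2 fold change was -0.10 against 0.04 over all genes, with 3 estimates above 0 and 5 below. None passed at an unadjusted p under 0.05 in edgeR's test (30.5% of all genes did). DESeq2 called none of the 8 members, beside 3123 genes among all 31177, which include those it gave no adjusted p. The edgeR test called only 0.0106% of all genes, 2 genes in all. No member's CPM was free of overlap, as was so for 5.46% of all genes. The interval for Mbp ran from -1.28 to 1.45 and that for Cldn11 from -0.80 to 1.06, so the interval for Mbp holds changes of 2-fold in either direction. Ermn had the largest estimate in size, -0.79 ± 0.598 (95% interval -2.09 to 0.51; adjusted p = 0.384). Leaving out AD-3 gave 5841 called genes of 19278 tested, and leaving out AD-HFD-3 gave 5321 of 19305. None of the 8 members was among them in either case. With AD-1, AD-2 and AD-4 left out, AD-3 stood alone for AD, and the members' median log2 fold change was 1.11.

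In AD-HFD against Sham, Cldn11 rose by 1.54 ± 0.437 on the log2 scale (95% interval 0.59 to 2.49; adjusted p = 0.0211) and Mag rose by 1.08 ± 0.372 (95% interval 0.27 to 1.89; adjusted p = 0.0435). These 2 of 8 members (25%) stand beside 32.7% of all genes called in either direction and 19.7% called higher, so the share of members called was near the background. Mbp had an estimate of 1.19 ± 0.635 (adjusted p = 0.163), Mobp of 1.10 ± 0.571 (adjusted p = 0.153), and Mog, Mal and Cnp of 0.51, 0.45 and 0.39. Ermn alone lay below 0, at -0.60 ± 0.597 (adjusted p = 0.455). The members' median was 0.79 against 0.03 over all genes. No member had groups that did not overlap, since AD-HFD-3 lay within or below the Sham range for all 8; 35.1% of all genes did not overlap. This comparison and AD against Sham share the Sham libraries, so their agreement is not independent.

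Both calls were lost when certain single libraries were left out. The call of Cldn11 was lost without Sham-1 (adjusted p = 0.0627), without Sham-4 (0.0628), without AD-HFD-1 (0.0531) and without AD-HFD-2 (0.0609). Mag was not called without any 1 of these 4 (adjusted p from 0.0779 to 0.131), nor without Sham-2 (0.0763), without AD-HFD-4 (0.109), without AD-1 (0.0548) or without AD-4 (0.0555). Mag was also not called with limma voom (0.0709), in a fit on the 2 groups alone (0.0574) or with new loci left out (0.0502). Without AD-HFD-3, Mbp, Mag, Mobp and Cldn11 were called, with Cldn11 at 1.85 and Mag at 1.35. That fit called 44.6% of all genes, 24.5% as higher. The general neuron markers ran against the members' levels here, in reverse order over the 4 AD-HFD libraries: the mean log2 CPM of 9 of them was 7.66, 8.16, 9.09 and 6.97 in AD-HFD-1 to AD-HFD-4, against 9.27 to 9.62 in Sham, and 6 of the 9 fell. All 4 red blood cell markers rose (list mean 2.54 to 6.45 in AD-HFD, 1.78 to 2.69 in Sham). AD-HFD-3, lowest in myelin RNA, had the neuron and red blood cell levels nearest to Sham. The part of either marker list in the result was not tested.

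**Figure D2:**
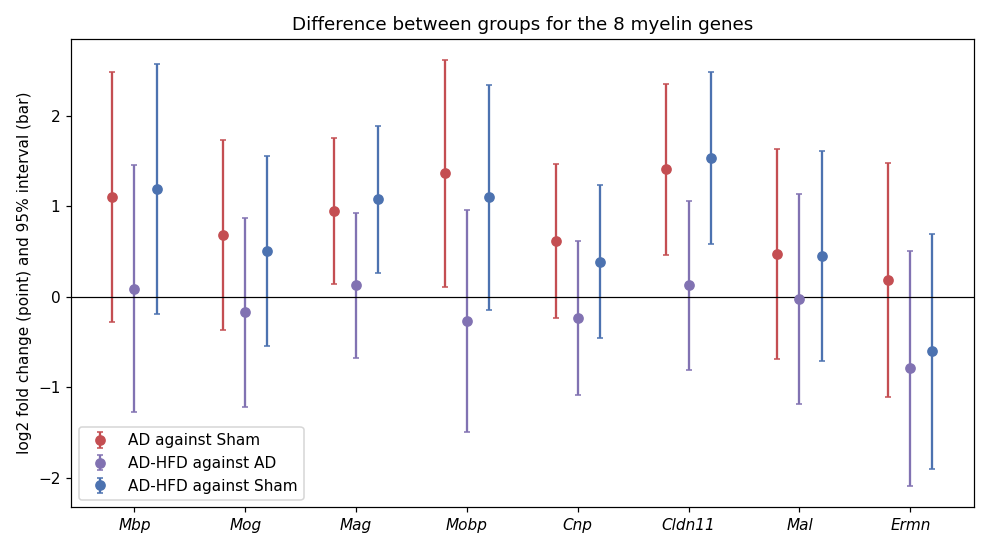
Log2 fold change of each member in the 3 comparisons, as points with 95% intervals from edgeR's quasi-likelihood fit. The intervals of Cldn11 and Mag in AD-HFD against Sham lie above 0 and passed the adjusted test, those of Mag, Mobp and Cldn11 in AD against Sham lie above 0 but did not pass it, and every interval in AD-HFD against AD spans 0.

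Because the members moved together from library to library, the level of each was also taken relative to the mean log2 CPM of the other 7 in the same library, a measure chosen after the values had been seen. This log2 ratio had a median SD within groups of 0.270 for the members, against 0.925 for the 17105 genes with counts in every library, each taken relative to the mean of the members. Groups that do not overlap are therefore easier to reach for the members than for most genes. The 8 ratios are also linked, since a low value of 1 member raises the ratios of the other 7.

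Ermn had the largest difference from Sham of the 8 ratios. Its log2 ratio to the other 7 was -1.72, -1.62, -1.97 and -2.04 in Sham, -2.29, -2.46, -3.85 and -2.77 in AD, and -2.74, -3.32, -3.28 and -3.94 in AD-HFD. All AD and all AD-HFD libraries lay below all Sham libraries. The Sham mean was -1.84, against -2.84 for AD and -3.32 for AD-HFD, which puts the ratio at 0.499 and 0.358 of that in Sham. AD-HFD and AD overlapped, with a difference of -0.48. AD-HFD-3 (-3.28), the lowest of its group in CPM of every member, lay within the range of its group here, and AD-3 (-3.85), the AD library with cortex markers nearest to Sham, was the lowest AD library. Leaving out 1 library at a time moved the AD-HFD difference between -1.68 and -1.28 and the AD difference between -1.19 and -0.67, the latter without AD-3. With AD-3 as the single library of its group, the other 3 being left out, it was -2.01. With Cldn11 left out of the reference the differences were -1.37 for AD-HFD and -0.90 for AD. Per Cldn11 transcript count, Ermn stood at 0.613, 0.622, 0.440 and 0.459 in Sham, 0.299, 0.299, 0.0689 and 0.150 in AD, and 0.156, 0.0964, 0.119 and 0.103 in AD-HFD. These values follow from the ratios of both genes to the other members and add no separate evidence.

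Cldn11 lay at the other end. Its log2 ratio to the other 7 was -0.92, -0.84, -0.62 and -0.75 in Sham, -0.30, -0.47, 0.56 and 0.35 in AD, and 0.32, 0.54, 0.22 and -0.20 in AD-HFD, again with no overlap with Sham in either group. The difference in means was 0.82 for AD and 1.00 for AD-HFD. Mobp was higher than all Sham libraries in both groups (0.54 and 0.40), Mag in AD-HFD (0.52), while Mog was lower in both (-0.20 and -0.23) and Mal in AD (-0.46). With the median of the other 7 in place of their mean, the difference of Mobp in AD-HFD against Sham turned to -0.12, that in AD was 0.19 and that of Mag in AD-HFD 0.16. Without Cldn11 in the reference those of Mog came to -0.08 in AD and -0.09 in AD-HFD. With the mean of the other 7, 5 of 8 members (62.5%) did not overlap in AD against Sham, beside 10.8% of all genes. In AD-HFD against Sham it was 5 of 8, beside 9.46%. The shares over all genes are not a like background. The median SD of the ratio within groups was 0.270 for the members and 0.925 for genes with counts in every library. In AD-HFD against AD no member's ratio was free of overlap, as was so for 1.69% of all genes. Mbp and Cnp overlapped in all 3 comparisons.

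As a test over all genes, the counts were refitted with the geometric mean of the 8 members' counts in each library in place of its library size. None of the 8 members was called in any comparison. Ermn in AD-HFD against Sham came nearest, at -1.26 with an unadjusted p of 0.0426 in edgeR's quasi-likelihood test and an adjusted p of 0.299. In that fit the common dispersion had a square root of 0.717, against 0.415 with ordinary library sizes, and 553 genes were called in AD-HFD against Sham. That larger spread is in part shared between genes and makes a member harder to call, so the missing call decides little. The difference of Ermn remains a description of these 12 libraries that this test did not call.

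**Figure D3:**
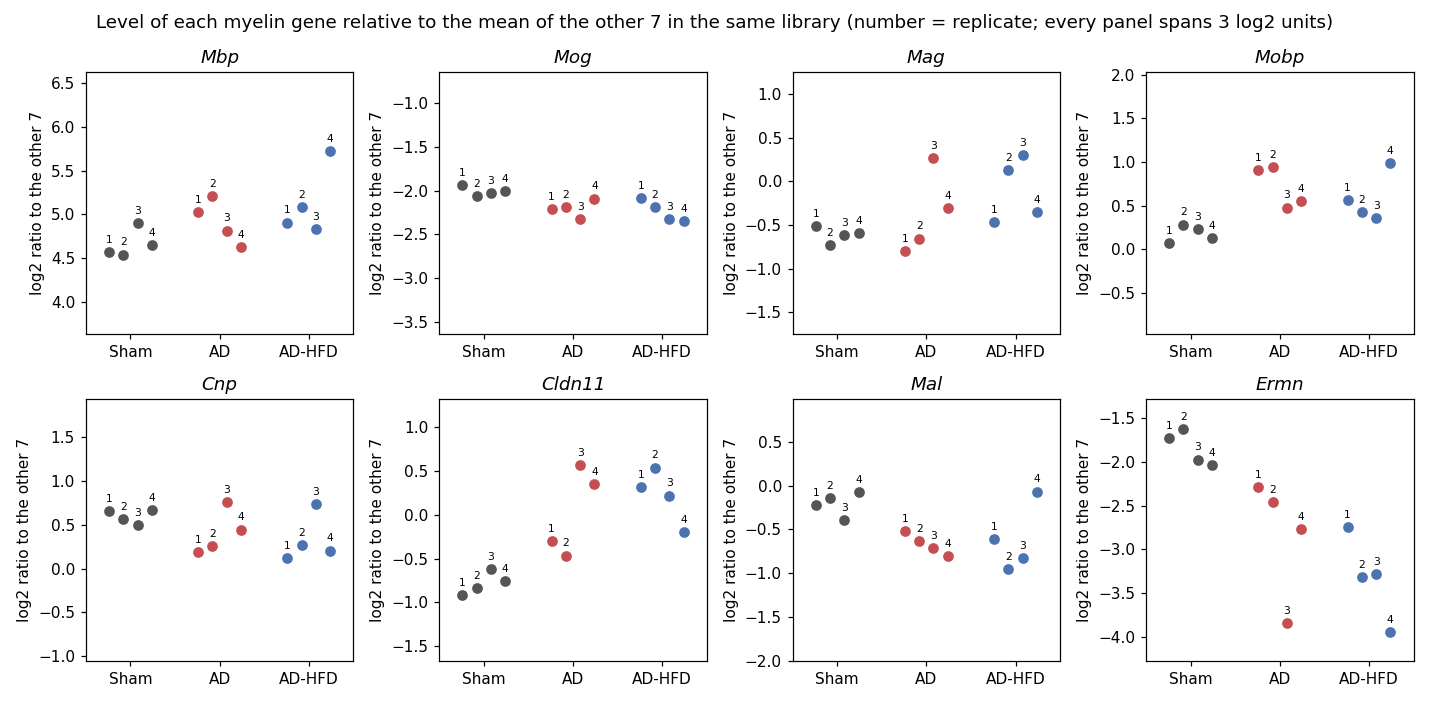
Log2 ratio of each member's CPM to the geometric mean of the other 7 in the same library, by group; points are libraries labelled with their replicate number, and every panel spans 3 log2 units. Ermn lies at -2.04 or above in Sham, between -3.85 and -2.29 in AD and between -3.94 and -2.74 in AD-HFD, and Cldn11 lies at -0.62 or below in Sham and at -0.47 or above elsewhere.

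Of 24 tested other genes of the sheath and mature oligodendrocytes, 1 rose in AD against Sham and none was called in AD-HFD against AD. In AD-HFD against Sham 2 rose and 1 fell. Over all genes 6.23%, 0.0106% and 32.7% were called in these 3 comparisons, and 19.7% were called higher in the last. The same shares stand beside the lists in the paragraphs that follow. The median log2 fold change of the 24 genes was 0.51, -0.08 and 0.13 in the 3 comparisons. Adamts4, a metalloprotease made by oligodendrocytes, stood at 18.0, 35.9, 39.4 and 20.3 CPM in Sham, 105, 96.9, 124 and 87.9 CPM in AD, and 166, 187, 88.1 and 277 CPM in AD-HFD. Every library of the AD model lay above every Sham library, AD-3 and AD-HFD-3 included. It rose by 1.86 ± 0.338 in AD (adjusted p = 0.0110) and by 2.66 ± 0.348 in AD-HFD (adjusted p = 0.00152), both against Sham. Cd9, a tetraspanin, rose in AD-HFD against Sham by 1.65 ± 0.333, from 104.5 ± 40.1 to 327 ± 110.1 CPM (adjusted p = 0.00536). AD-HFD-3 was the lowest of its group for Cd9, at 176 CPM. In AD, Cd9 stood at 151, 166, 279 and 186 CPM, highest in AD-3, the AD library lowest in every member. The part of other cells in this rise was not tested. Tppp, a tubulin-binding protein of oligodendrocyte processes, fell by 0.91 on the log2 scale (adjusted p = 0.0210), from 84.1 ± 8.05 to 44.6 ± 15.7 CPM. Tppp stood at 34.8, 53.5, 61.8 and 28.2 CPM in AD-HFD-1 to AD-HFD-4. That is the order of the general neuron markers in these libraries and the reverse of the members' mean. The part of neurons in this fall was not tested. Without AD-HFD-3, 8 of the 24 genes rose in AD-HFD against Sham, and without Sham-1, Sham-3, AD-HFD-1 or AD-HFD-4 none fell. The fit without AD-HFD-3 called 24.5% of all genes as higher and 44.6% in either direction, which also holds for the lists that follow.

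The 7 enzymes that make myelin lipids all had estimates above 0 in both comparisons with Sham, with medians of 0.75 in AD and 0.60 in AD-HFD. None was called in AD, and 2 rose in AD-HFD. These were Cers2, the ceramide synthase of very long acyl chains (1.47 ± 0.334, adjusted p = 0.00864), and Elovl1, an elongase of such chains (1.44 ± 0.382, adjusted p = 0.0157). Without Sham-1 only 1 of them was called. In AD against Sham, 2 enzymes passed once AD-HFD-3 was left out, and 1 passed once AD-3 was.

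Of 11 tested regulators of oligodendrocyte differentiation, Tcf7l2 rose in AD against Sham by 4.50 ± 0.872 (adjusted p = 0.0145), and Myrf and Olig2 rose in AD-HFD against Sham. Tcf7l2 is also a marker of thalamus and stood at 391, 99.1, 6.25 and 223 CPM in AD-1 to AD-4, against 5.17 to 9.70 CPM in Sham. Without Sham-1 or Sham-4, or with limma voom, it was not called. Myrf, the factor that drives myelin genes at the last step of maturation, stood at 85.5, 138, 163 and 86.8 CPM in Sham and 234, 322, 124 and 249 CPM in AD-HFD, a difference of 0.97 ± 0.298 (adjusted p = 0.0279). Olig2, the factor of the whole lineage, had a difference of 0.96 ± 0.327 (adjusted p = 0.0407), from 43.1 ± 11.7 to 84.1 ± 33.4 CPM. AD-HFD-3 was the lowest of its group for both and lay within the Sham range. In AD-HFD against Sham no regulator was called without any 1 of Sham-1, Sham-4, AD-HFD-1, AD-HFD-2 and AD-HFD-4. There 1 was called with limma voom and without Sham-2, AD-1 or AD-4, 3 without Sham-3 and 4 without AD-HFD-3.

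Of 11 tested genes of precursors and newly formed oligodendrocytes, 2 rose in AD-HFD against Sham and none was called elsewhere. Vcan, the proteoglycan versican, rose by 1.21 ± 0.222 (adjusted p = 0.00397), and Pdgfra, the receptor that keeps precursors dividing, rose by 1.03 ± 0.340 (adjusted p = 0.0368). Pdgfra stood at 81.0, 117, 83.4 and 242 CPM in AD-HFD against 52.1 to 83.1 CPM in Sham, so that AD-HFD-4 lay well above the rest. The mean log2 CPM of 3 tested endothelial markers was 7.98 in that library, 4.97 to 6.47 in the rest of its group and at most 5.44 in Sham, and that of the 4 red blood cell markers was highest there too, at 6.45. The part of those cells in the change of Pdgfra was not tested. Leaving out any 1 Sham library, AD-HFD-2 or AD-HFD-4, or using limma voom, left 1 of the list called, and without AD-HFD-3, 3 were called higher and 1 lower. The list's median was 0.56 in AD and 0.01 in AD-HFD, both against Sham.

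Of 4 tested genes of injured or disease-associated oligodendrocytes, 3 rose in AD-HFD against Sham. Cd63, a tetraspanin of late endosomes, stood at 43.4, 96.6, 81.1 and 53.9 CPM in Sham and 558, 572, 294 and 503 CPM in AD-HFD, a rise of 2.81 ± 0.518 (adjusted p = 0.00401). In AD it stood at 84.3, 107, 495 and 211 CPM, so AD-3, the AD library lowest in every member, was the highest for Cd63. C4b, a complement component, rose by 2.34 ± 0.549 (adjusted p = 0.00972), and Klk6, a protease of mature oligodendrocytes, by 1.85 ± 0.496 (adjusted p = 0.0168). These genes are also made by microglia, astrocytes or vessels, and 4 of 7 microglia markers (1 fell) and 2 of 3 tested endothelial markers rose in the same comparison; the part of those cells was not tested. Without Sham-1, Sham-4 or AD-HFD-2, 2 of the 4 genes were called, and without AD-HFD-3 all 4. In AD against Sham 1 was called without AD-1, AD-2 or AD-HFD-3.

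On the axonal side, 9 tested genes of the node of Ranvier and its flanks all had estimates below 0 in AD-HFD against Sham, with a median of -1.05, and 5 fell. Epb41l3, the scaffold of the paranode, stood at 251, 214, 229 and 228 CPM in Sham and 63.1, 79.1, 112 and 33.9 CPM in AD-HFD, and fell by 1.68 on the log2 scale (adjusted p = 0.0132). Scn8a, the nodal sodium channel, fell by 1.88 (adjusted p = 0.0258), Cntnap1, the paranodal adhesion protein Caspr, by 1.40 (adjusted p = 0.0321), Ank3, the nodal ankyrin, by 1.05 (adjusted p = 0.0192) and Kcna1, a juxtaparanodal potassium channel, by 0.77 (adjusted p = 0.0487). In AD against Sham none of the 9 was called and their median was -0.06. The neuron markers given above had lower levels in the same libraries, and 6 of those 9 fell. Without AD-HFD-3, 8 of the 9 node genes fell. Only 1 fell without Sham-1 or AD-HFD-1, 2 without Sham-4 or AD-HFD-2, 3 without Sham-3 or AD-HFD-4 and 4 without Sham-2 or AD-2. In AD-HFD against AD none was called, but 7 fell once AD-HFD-3 was left out and 3 once AD-3 was.

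Peripheral myelin was checked with Schwann cell markers. Of the 6 tested markers, 3 rose in AD-HFD against Sham (Prx, Pmp2 and Pmp22) and Drp2 fell, and the list's mean log2 CPM was 2.03 to 2.38 in Sham, 1.78 to 3.33 in AD and 3.15 to 3.39 in AD-HFD. Astrocyte markers had a median log2 fold change of 0.30 for AD and -0.22 for AD-HFD, both against Sham, with none called for AD and 1 called in each direction for AD-HFD.

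**Figure D4:**
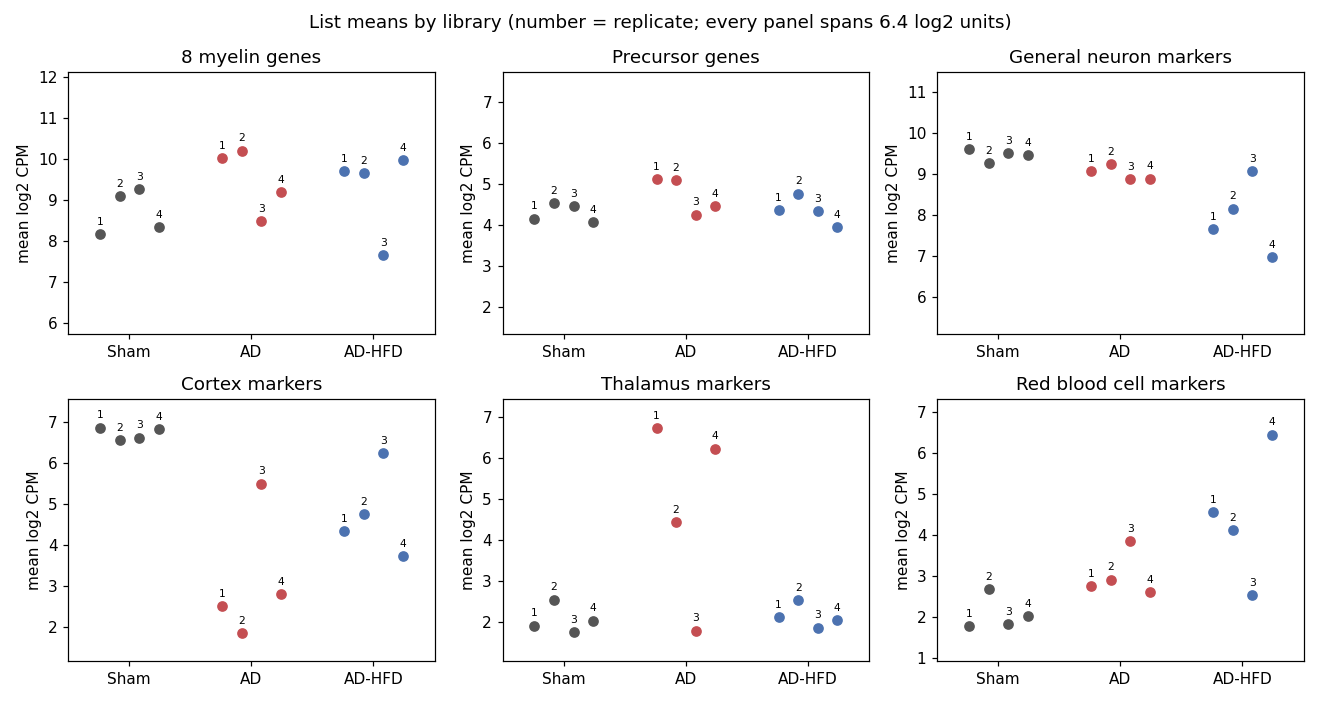
Mean log2 CPM of 6 gene lists in every library, by group; points are libraries labelled with their replicate number, and every panel has the same span. AD-1, AD-2 and AD-4 stand apart from AD-3 in the cortex and thalamus markers, and AD-HFD-3 lies nearest to Sham in the neuron, cortex and red blood cell markers of its group, where its myelin mean is lowest.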

How the data were processed

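RNA-seq of brain was measured in 12 libraries, 4 per group, grouped by the library names in the labels. TRIzol extraction and an mRNA library kit are given in the labels' protocols. FastQC and Trimmomatic are named in the submitters' processing notes; aligner, counter, strand setting and build are not given in the sources used here. The authors deposited raw counts per gene (31177 rows, of them 9127 unnamed new loci with 2.24% to 3.29% of counts). Totals were 26668974 to 35351792 per library, and depth covers counting error only.

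Counts were tested in R 4.3.3 with edgeR 4.0.16: filterByExpr (18850 genes), TMM scaling, 1 mean per group over all 12 libraries, the non-legacy quasi-likelihood test, Benjamini-Hochberg adjustment over all genes, calls at adjusted p under 0.05. SE is the log2 fold change divided by the square root of F. CPM use TMM-scaled library sizes. The tests were checked on simulated data. The named genes are the 8 members, the called genes of 6 lists of oligodendrocyte, myelin and node genes, and genes most like the members (of 10 taken by correlation; not all genes the rule takes are reported here); those given from other lists stand beside a result. Members and lists were chosen with earlier results of these data known. Alternatives were DESeq2 1.42.0, limma 3.58.1 voom, other scalings and filters, the legacy method, the replicate number as a block, 2 groups only, new loci left out, and libraries left out. The ratios among the members, their alternatives and the fit on the members' own counts were added after seeing the data. Overlapping genes could share reads.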

Additional observations from a re-analysis of the deposited data

Results flagged for a closer look

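Mog in AD-HFD was flagged because 1 library stood apart: AD-HFD-3 was at 48.6 CPM, the nearest of the other 3 at 213 CPM, and this gap was 0.854 of the group's whole range, above Dixon's 95% limit for 4 libraries. It was 1 of 24 member and group pairs looked at, and AD-HFD-3 was also the lowest of its group for the other 7 members. The members moved together, so the 24 pairs are not independent and give no chance count to set this against.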

How the results depend on the processing

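Over 24 member and comparison pairs, 494 of 552 alternative values kept direction and call, 34 changed sign, 18 lost a call and 6 gained one. Members called in AD against Sham were 0, but 1 with DESeq2 and 1 in the fit on the 2 groups; leaving out 1 library gave 0 to 2. Members called in AD-HFD against Sham were 2, but 1 each with voom, the fit on the 2 groups, new loci left out, and AD-1, AD-2 with AD-4 left out; leaving out 1 library gave 0 to 4. All genes called in AD against Sham numbered 1174, but 2602 with DESeq2 and 2363 in the fit on the 2 groups (302 to 2329 with 1 library left out); in AD-HFD against AD 2, but 3123 with DESeq2 and 0 in the fit on the 2 groups or without the 3 AD libraries with thalamus markers (0 to 5841); in AD-HFD against Sham 6162 (3514 to 8615).

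Replicate numbers did not pair the libraries: same-numbered libraries correlated at -0.317 to 0.0947, and 1 of 12 correlated best with its own number. With the replicate number as a block, 0 members were called in AD-HFD against Sham (adjusted p 0.0587 for Cldn11 and 0.0851 for Mag), 0 regulators in AD against Sham, 5 genes in AD-HFD against AD, and Ermn in AD against Sham was at -0.23. Voom put Ermn in AD against Sham at -0.12, and Mbp and Cldn11 in AD-HFD against AD at -0.038 and -0.067; without scaling Mal there was at 0.018. Without those 3 libraries, AD against Sham gave -0.20 for Mbp, -0.57 for Mog, -0.065 for Mobp, -0.14 for Cnp, -0.73 for Mal and -2.07 for Ermn, and AD-HFD against AD gave 1.07 for Mog, 1.15 for Mobp, 0.52 for Cnp, 1.17 for Mal and 1.46 for Ermn. The cause was not tested.

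Leaving out 1 library moved Ermn in AD against Sham between -0.085 and 0.53, Mal in AD-HFD against Sham between -0.012 and 0.78, and in AD-HFD against AD Mbp between -0.39 and 0.42, Mog between -0.43 and 0.14, Mag between -0.10 and 0.40, Mobp between -0.65 and 0.061, Cnp between -0.43 and 0.038, Cldn11 between -0.11 and 0.44 and Mal between -0.49 and 0.31. Of 274 alternative values of the ratios among the members, 29 moved by more than 1 SD, and among those of groups that did not overlap 1 changed sign (Mobp in AD-HFD against Sham, -0.116 with the median of the other 7). With 4 libraries per group and an 8.65-fold range of Mbp within AD-HFD, the spread between libraries, not depth, limits these comparisons.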
